A study of Mus musculus with 40 samples.

Results

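The nuclear-encoded subunits of the mitochondrial respiratory chain were followed in brown adipose tissue, the heat-producing fat of the mouse. Members were the rows of the deposited count table whose mouse symbol names a numbered complex I subunit (Nduf), one of the 4 Sdh subunits of complex II, a Uqcr subunit of complex III, a Cox4 to Cox8 subunit of complex IV or an Atp5 subunit of complex V. Of 96 rows with such symbols among 52636, 12 pseudogenes or non-coding copies were left out and 4 tissue isoforms (Cox4i2, Cox8b, Cox7a1 and Ndufa4l2) were set aside. The 80 members were 35 genes of complex I, 4 of complex II, 8 of complex III, 16 of complex IV (with Ndufa4) and 17 of complex V. The 77 members that passed the filter on low counts are the ones tested, among 17079 genes tested in all. Cox7b2 (at most 4 reads, in 3 libraries), Cox8c (no read, which allows up to 3 counts in a library, counting error only) and Atp5g2 (at most 2 reads, in 9 libraries) did not pass.

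The tissue came from 40 male C57BL/6 mice, 5 in each of 8 groups. The labels' protocol gives their age as 10 to 14 weeks, and the design text gives 10 to 12 weeks. Every mouse received 1 intraperitoneal dose of antibody: 40 mg/kg of the anti-ragweed isotype control (control mice), or 20 mg/kg of anti-Jag1 with 20 mg/kg of anti-Jag2 (Jag antibody mice), which block 2 ligands of the Notch receptors. Tissue was taken at 15 h, 5 d or 7 d. A further control group and a further Jag antibody group were taken at 7 d after daily thyroid hormone from day 2, given as 1 ug of T4 (thyroxine) and 0.05 ug of T3 (triiodothyronine) per g of body weight. The labels name no genetic change in these animals. Control mice are numbered 1 to 5 within each group and Jag antibody mice 6 to 10, and each is a separate animal.

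Complexes I to IV pass electrons from NADH and succinate to oxygen, complexes I, III and IV pump protons out of the mitochondrial matrix, and complex V, the ATP synthase, lets them return to make ATP. In brown adipocytes the uncoupling protein Ucp1 lets protons return without ATP synthesis, so that oxidation gives heat, and brown fat of rodents holds much respiratory chain and comparatively little ATP synthase. Most subunits are encoded in the nucleus and a few in the mitochondrial genome, and thyroid hormone is a known regulator of oxidative metabolism in this tissue.

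Libraries held 12217623 to 36511893 counts. All 10 brown adipocyte markers examined, Ucp1 and Cidea among them, were detected in every group, with summed levels of 8297 to 69660 CPM (counts relative to library size, with libraries scaled by TMM, edgeR's trimmed mean of M values). Expression is given below as log2 CPM with a prior count of 2, and group values as mean ± SD (n = 5). Control mice 2 and 4 at 7 d stood apart in how counts depended on transcript length: the slope of a library's log2 CPM on log2 transcript length, relative to the mean library, was -0.36 and -0.66 in these mice and -0.20 to -0.078 in the other 3. Control mice 2 and 5 at 5 d also stood apart, with -0.46 and -0.55, while Jag antibody mice at 5 d ran from -0.30 to 0.25. Skeletal muscle genes differed between mice of a group by orders of magnitude, with summed levels of 8 muscle markers from 0.878 CPM in a Jag antibody mouse at 5 d to 175900 CPM in a control mouse at 5 d. Results that rest on these libraries are given beside their values without them.

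Levels were compared between genes per kilobase of the principal transcript. Cox4i1, the main isoform of the complex IV subunit that regulates the oxidase, was highest at 3466 CPM per kb over the 40 mice. Atp5b, the catalytic beta subunit of the F1 head of ATP synthase, followed at 3380, and Cox6b1, on the intermembrane side of complex IV, stood at 2377. Of the complex II subunits, Sdhb (iron-sulfur protein) stood at 1245, Sdhd and Sdha (membrane anchor and flavoprotein) at 1057 and 1031, and Sdhc at 212 CPM per kb. Some members with low levels share much of their sequence with other genes: 84.8% of the 50-base stretches of Atp5l, 87.4% of Atp5g2 and 53.0% of Cox7c were shared. How reads with several matches were counted is not given in the sources used here, so the levels of these genes are uncertain.

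The members moved together across mice. Each member's log2 CPM was correlated over the 40 mice with the median of the other members, each taken relative to its own mean. The median r was 0.97, with 57 of 77 members above 0.9. Within groups, with group means removed, the median was 0.95. These values describe mice that share 1 scaling factor per library, so any error of scaling is shared by all members. The 4 members under 0.5 were Sdha (0.48), Ndufs1, the largest core subunit of complex I (0.36), Cox6a2, the heart and skeletal muscle isoform of subunit 6a (0.09), and Atp5g1, one of the genes for the c ring (0.05).

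**Figure D1:**
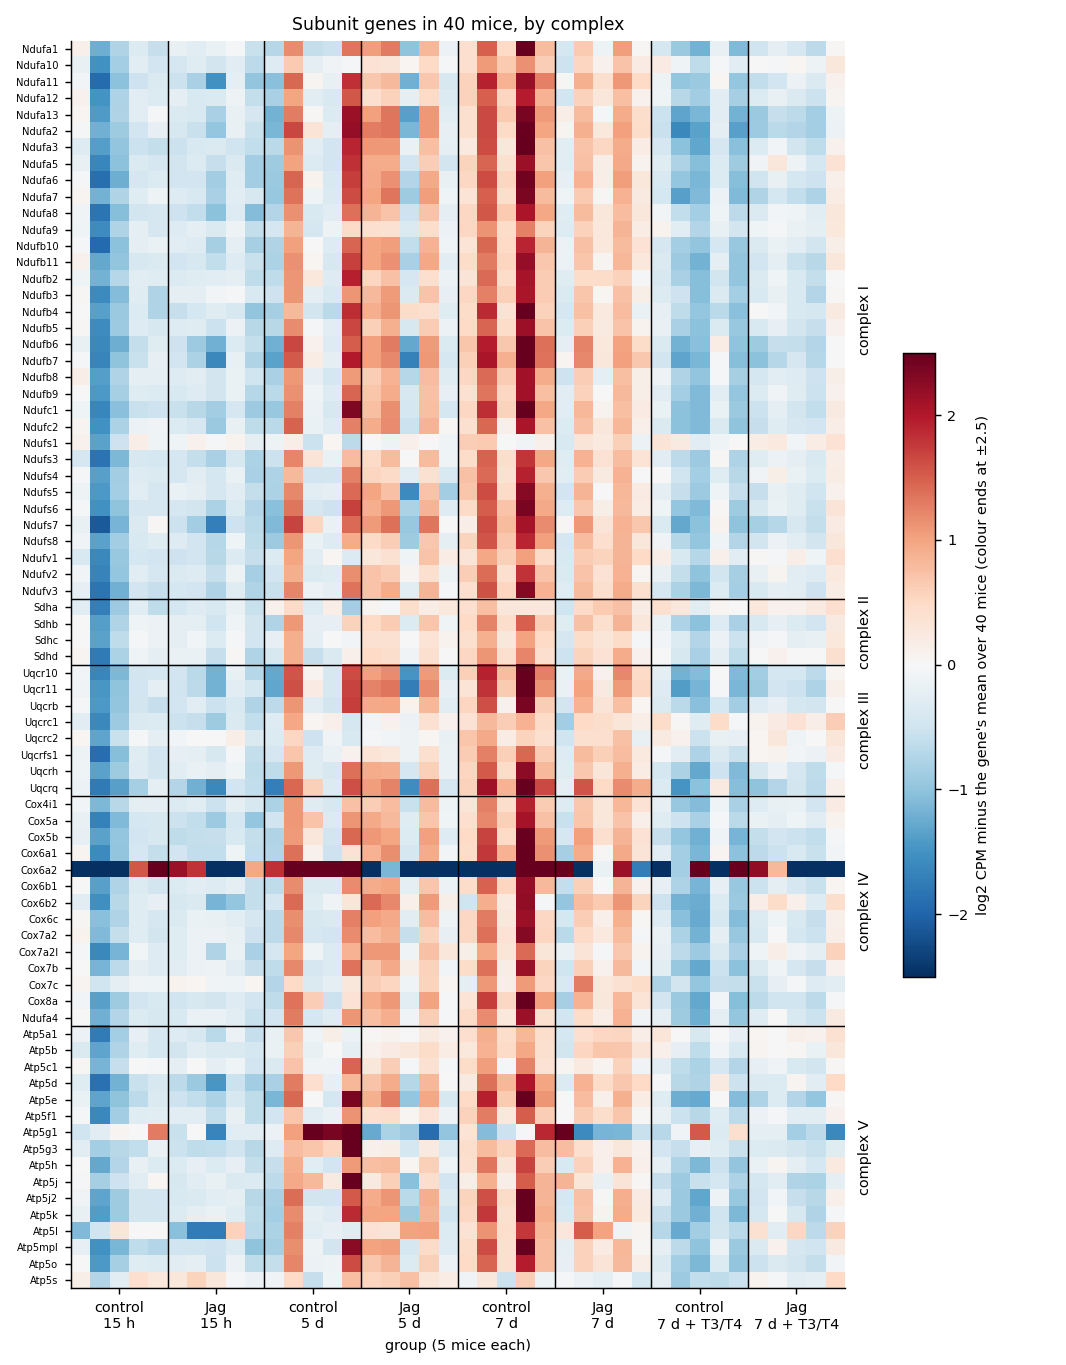
Log2 CPM of 76 of the 77 tested members (rows, by complex) in 40 mice (columns, 5 per group), each minus the gene's mean over the 40 mice; colour ends at 2.5 in either direction. Nearly all rows of complexes I to V share 1 pattern, while Cox6a2 and Atp5g1 follow a pattern of their own. The median member is highest in control mouse 4 at 7 d (2.09). Control mouse 2 at 7 d (1.42) and control mouse 5 at 5 d (1.36) follow.

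Over the 8 groups, 71 of 77 members had their highest mean in control mice at 7 d. The lowest mean was in control mice with hormone for 36 members and in control mice at 15 h for 33. The median member, relative to its own mean over all mice, stood at 0.46, 1.42, 0.46, 2.09 and 0.74 log2 units in control mice 1 to 5 at 7 d. Mice 2 and 4 were thus the highest of the group. Jag antibody mice 6 to 10 at 7 d stood at -0.32, 0.69, 0.27, 0.83 and 0.18, a range that overlaps mice 1, 3 and 5 of the control group. With hormone, control mice stood between -1.02 and -0.22 and Jag antibody mice between -0.52 and 0.15. At 15 h both antibodies gave values below 0 in every mouse, with a range of -1.43 to -0.065 in control mice and -0.62 to -0.24 in Jag antibody mice. The spread was widest at 5 d, with -0.67 to 1.36 in control mice and -0.36 to 0.90 in Jag antibody mice.

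As a share of all counts, the 80 members held 3.53% ± 0.871 in control mice at 15 h and 3.76% ± 0.320 in Jag antibody mice of that time. The shares at 5 d were 5.65% ± 1.83 under the control antibody and 6.19% ± 1.5 under the Jag antibodies. At 7 d the shares were 7.22% ± 1.79 in control mice, from 5.57% to 10.1%, and 5.78% ± 1.12 in Jag antibody mice. With hormone they were 4.09% ± 0.758 in control mice and 4.81% ± 0.599 in Jag antibody mice. No control mouse with hormone, whose highest share was 5.02%, reached the lowest control mouse without it.

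By complex, complex IV held 1.32% ± 0.546 of counts in control mice at 7 d and 0.551% ± 0.159 with hormone. Complex II held 0.723% ± 0.0414 and 0.585% ± 0.0781. Complex V held 1.98% ± 0.343 and 1.32% ± 0.203. The shares of a complex are weighted by its most abundant genes, so Sdha weighs on complex II and Atp5b and Atp5a1 on complex V.

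**Figure D2:**
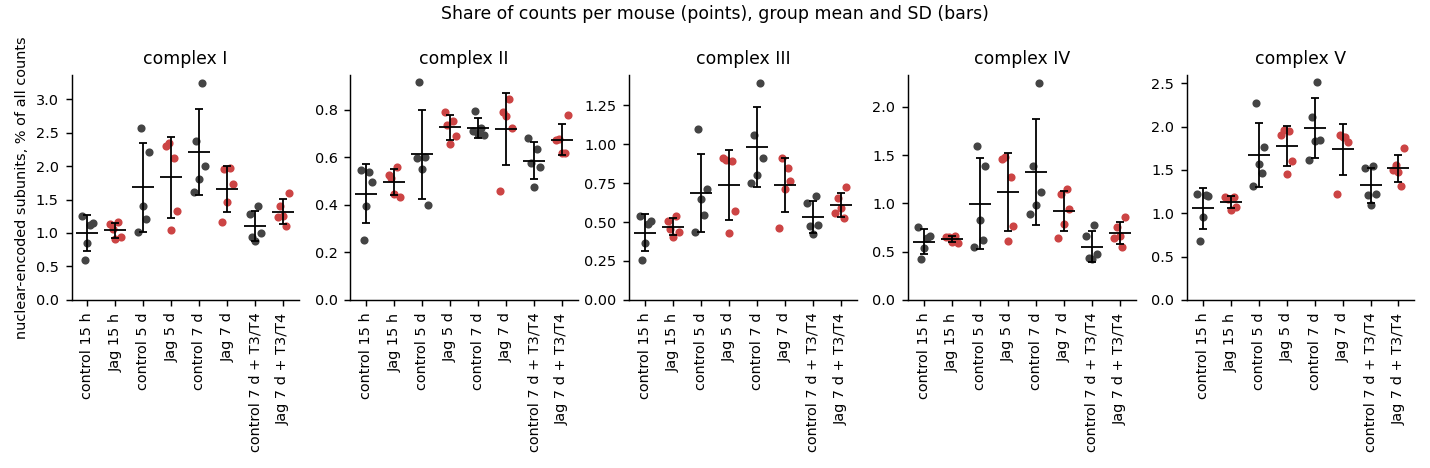
Share of all counts, in percent, held by the nuclear-encoded subunits of each complex in every mouse (points; grey control, red Jag antibody), with the group mean and SD (bars, n = 5). The highest mean share of complexes I, III, IV and V is in control mice at 7 d, and complex IV shows the lowest shares with hormone in control mice (mean 0.551%).

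The hormone comparison in control mice asks what T3 and T4 change in brown fat when Notch ligands are not blocked. Subunit transcripts of all 5 complexes were lower with hormone. Of 77 members tested, 72 fell and none rose, with a median log2 change of -1.81, which is 28.5% of the level without hormone. The median over all 17079 genes was 0.036. Called here means an adjusted p under 0.05 in edgeR's quasi-likelihood test with Benjamini-Hochberg adjustment over all genes tested. In this comparison 43.2% of all genes were called, and 22.9% were called lower. For 68 members every mouse with hormone was below every mouse without it, against 15.2% of all genes. In bulk tissue, fewer cells of a type and less RNA per cell cannot be told apart.

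In complex I, which oxidises NADH, 34 of 35 members fell, with a median of -1.85. All 28 supernumerary subunits, which surround the catalytic core, fell, with a median of -1.87. Ndufb7, a supernumerary subunit of the membrane arm, stood at 8.53, 9.97, 8.82, 10.58 and 9.29 log2 CPM in control mice 1 to 5 at 7 d. With hormone it stood at 7.46, 6.61, 6.79, 7.89 and 6.87. Every mouse with hormone was below every mouse without it. The log2 change was -2.43 ± 0.50 (SE), with an adjusted p of 0.000289 in edgeR. Ndufa2, a small subunit with a thioredoxin-like fold, changed by -2.34 ± 0.47.

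Of the 7 nuclear core subunits of complex I, among them the carriers of the flavin and the iron-sulfur clusters, 6 fell, with a median of -1.60. Ndufs7 (-1.95), Ndufs8 (-1.72) and Ndufv2 (-1.68) changed most, and Ndufv1 (-0.89) less. Ndufs1 was not called. Its values were 10.28, 10.32, 9.67, 9.57 and 9.79 log2 CPM without hormone and 9.98, 9.88, 9.39, 9.55 and 9.66 with it. The groups overlapped, and the log2 change was -0.25 ± 0.21 with an adjusted p of 0.348 in edgeR.

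Complex II, succinate dehydrogenase, is the one complex without a mitochondrially encoded subunit. There 3 of 4 members fell: Sdhb by 1.5, Sdhd by 1.15 and Sdhc by 0.98 on the log2 scale. Sdhb stood at 10.83, 11.57, 10.78, 11.82 and 10.94 log2 CPM without hormone and at 10.16, 9.56, 9.31, 10.02 and 9.53 with it, so the groups did not overlap. Sdha, the flavoprotein that holds the succinate site, stood at 11.89, 12.22, 11.75, 11.76 and 11.75 without hormone and at 11.88, 11.75, 11.18, 11.53 and 11.49 with it. Those groups overlapped, and the log2 change of Sdha was -0.30 ± 0.23 (adjusted p of 0.29 in edgeR).

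In complex III, which passes electrons from ubiquinol to cytochrome c, 7 of 8 members fell, with a median of -2.02. Uqcrq (chr11:53427922-53430831, minus strand, GRCm38), a small subunit at the ubiquinone site, had the largest change of all members. It stood at 9.72, 11.26, 10.01, 12.09 and 10.79 log2 CPM without hormone and at 8.80, 7.66, 8.12, 9.36 and 8.08 with it. The groups did not overlap, and hormone-treated mice had 17.7% of the level without hormone (log2 change -2.5 ± 0.53, adjusted p of 0.000399 in edgeR). Uqcr11, another small subunit, changed by -2.33, and the Rieske iron-sulfur protein Uqcrfs1 (-1.33) and the core protein Uqcrc2 (-0.67) fell less. Uqcrc1, the other core protein, stood at 10.71, 11.16, 10.96, 11.22 and 10.82 without hormone and 10.80, 10.37, 10.04, 10.80 and 10.32 with it. Its groups overlapped, and its change of -0.49 ± 0.24 had an adjusted p of 0.0999 in edgeR.

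In complex IV, cytochrome c oxidase, 13 of 14 tested members fell, with a median of -1.79. Cox5b, a subunit on the matrix side, stood at 6.22, 7.40, 6.22, 8.19 and 6.78 log2 CPM without hormone and at 5.13, 4.75, 4.52, 5.60 and 4.55 with it. The groups did not overlap (log2 change -2.20 ± 0.38). Cox8a changed by -2.16, Cox6a1 by -2.13, Cox7b by -1.91, Cox6b1 by -1.86, Cox7a2 by -1.83, Ndufa4 by -1.73 and Cox5a by -1.58. The supercomplex factor Cox7a2l (-1.27) and Cox7c (-1.28) fell less. Cox4i1 stood at 11.50, 12.47, 11.64, 13.12 and 11.85 without hormone and at 11.01, 10.26, 10.13, 11.09 and 10.39 with it, also without overlap (log2 change -1.62 ± 0.33). Of the tissue isoform pairs, Cox6b2, at 14.0 CPM per kb against 2377 for Cox6b1, changed by -1.72. Cox6a2 was not called (-1.76 ± 2.03, adjusted p of 0.509 in edgeR).

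In complex V, 15 of 16 tested members fell, with a median of -1.47. The 4 small membrane subunits had the largest median, -2.23, the 4 stalk subunits -1.55, and the 5 F1 head subunits -1.24. Atp5e, the smallest F1 subunit, stood at 9.80, 11.24, 9.95, 12.28 and 10.40 log2 CPM without hormone and at 9.0, 8.09, 8.04, 9.31 and 8.22 with it. The groups did not overlap (log2 change -2.42 ± 0.50). Within the same F1 head, Atp5b stood at 12.85, 13.46, 13.07, 13.56 and 12.99 without hormone and at 12.71, 12.38, 11.95, 12.52 and 12.20 with it. That is a smaller change of -0.84 ± 0.20 (adjusted p of 0.00132 in edgeR), again without overlap, and Atp5a1, the alpha subunit, changed by -0.67. Of the c ring genes, Atp5g3 changed by -1.25 and Atp5g1 by -0.16 ± 0.83 (adjusted p of 0.894 in edgeR).

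**Figure D3:**
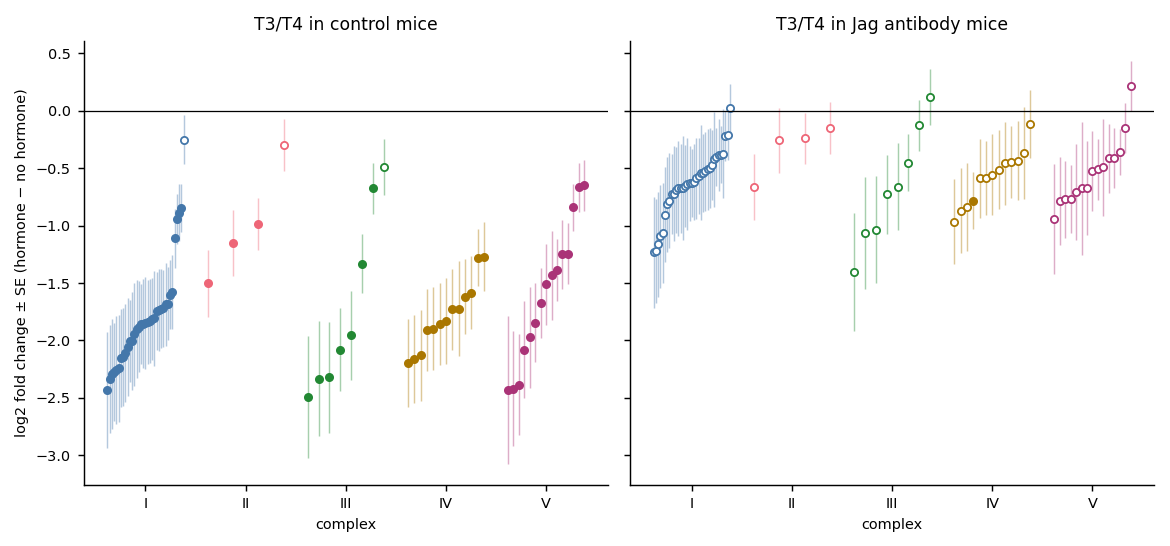
Log2 fold change with its SE (y axis) of each tested member, sorted within its complex (x axis), for hormone against no hormone in control mice (left) and in Jag antibody mice (right); filled points were called, open points were not, and Cox6a2 and Atp5g1, with large errors, are not drawn. In control mice 72 of the 77 members tested were called lower (medians -1.07 to -2.02 by complex), and in Jag antibody mice 1 was.

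Promoter windows of 300 bases, from 250 before to 50 after the RefSeq start (GRCm38.p6), were found for 66 of the 80 members. They were searched on both strands for 4 short strings that stand for factors known to act on respiratory genes: GCGCATGC for NRF1, CCGGAAGT for GABPA, AAGATGGC for YY1 and TCAAGGTCA for the estrogen-related receptors. The NRF1 string occurred in 10 members' windows (15.2%) and in 3.05% of the windows of 27025 genes. The YY1 string occurred in 10 (15.2%, against 3.19%), the GABPA string in 5 (7.58%, against 4.31%) and the estrogen-related receptor string in 2 (3.03%, against 0.466%). Any of them occurred in 26 members (39.4%, against 10.4%). Shown here, with the strings in capitals, are the 250 bases before the start of 4 members that fell with hormone and hold a string. These members come from complexes I, II, III and V, 1 from each, and Ndufa6 was picked after its values were seen. Their positions are chr10:80406822-80407071 (Uqcr11, minus strand), chr5:108434400-108434649 (Atp5k, minus strand), chr15:82354292-82354541 (Ndufa6, minus strand) and chr4:140961021-140961270 (Sdhb, plus strand). The GABPA string of Uqcr11 begins 66 bases before the start. Uqcr11 also has an NRF1 string in its window of 300 bases, which does not lie wholly within the 250 shown. In Atp5k the NRF1 string occurs on both strands, overlapping, from 50 bases before the start, and in Ndufa6 and Sdhb it begins 83 and 54 bases before it.
Uqcr11: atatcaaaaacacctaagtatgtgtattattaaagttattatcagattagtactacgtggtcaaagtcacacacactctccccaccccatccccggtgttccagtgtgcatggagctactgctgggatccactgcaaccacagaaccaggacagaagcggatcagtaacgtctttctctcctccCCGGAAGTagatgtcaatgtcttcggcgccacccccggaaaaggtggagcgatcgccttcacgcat
Atp5k: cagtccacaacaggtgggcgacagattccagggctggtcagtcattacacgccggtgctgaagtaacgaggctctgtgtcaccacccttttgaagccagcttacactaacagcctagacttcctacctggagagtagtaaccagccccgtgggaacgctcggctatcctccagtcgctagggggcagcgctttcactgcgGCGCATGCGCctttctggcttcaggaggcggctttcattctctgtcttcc
Ndufa6: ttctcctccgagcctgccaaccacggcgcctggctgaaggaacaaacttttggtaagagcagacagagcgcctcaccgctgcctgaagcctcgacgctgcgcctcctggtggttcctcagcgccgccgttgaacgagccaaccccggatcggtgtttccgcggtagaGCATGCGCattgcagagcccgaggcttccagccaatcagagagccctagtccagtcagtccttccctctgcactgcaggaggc
Sdhb: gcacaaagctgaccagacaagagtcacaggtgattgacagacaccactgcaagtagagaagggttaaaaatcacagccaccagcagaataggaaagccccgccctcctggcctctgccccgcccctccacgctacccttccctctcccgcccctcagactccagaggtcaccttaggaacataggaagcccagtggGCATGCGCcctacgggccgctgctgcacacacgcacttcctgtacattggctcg
A match is a string in a window and nothing more. With hormone in control mice the median change was -2.13 for members with the NRF1 string and -1.81 for matched members without it. The medians with and without the string were -2.08 and -1.83 for GABPA, -1.82 and -1.83 for YY1, and -1.20 and -1.83 for the estrogen-related receptors. These medians were not tested, and Uqcrc1, which was not called, has the NRF1 string as well.

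The size of the hormone change in control mice followed transcript length. Across the 77 members, Spearman's rho between the log2 change and the length of the principal transcript was 0.66, a description over genes that share libraries and are not independent. All 20 members under 600 nucleotides fell, with a median of -2.12, against 50.4% of all tested genes of that length (median -1.11) and 44 of 44 genes of that length with a mean log2 CPM of at least 6 (median -2.05). These reference sets, here and in the longer classes, include the members themselves, so members are partly compared with themselves. From 600 to 1000 nucleotides 26 of 27 members fell, with a median of -1.81. Among abundant genes of that length 89.8% fell, with a median of -1.58. From 1000 to 2000 nucleotides 22 of 23 members fell (median -1.39), against 80.0% of abundant genes (median -0.89). Of members of 2000 nucleotides or more, 4 of 7 fell (median -0.67), against 20.8% of abundant genes (median 0.054). Ndufs1 and Sdha, which were not called, have transcripts of 2661 and 2900 nucleotides. Members are short, with a median of 838 nucleotides for those tested, against 2656 for all genes tested.

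Length slopes moved with the groups: they were -0.66 to -0.078 in control mice at 7 d and 0.062 to 0.31 in control mice with hormone. TMM factors were 0.647 to 0.926 and 1.01 to 1.18. With per-library trends on length and GC content fitted as offsets, 59 members were called lower, all of them among the 72, and the median change was -0.76. Of all 17079 genes, 3133 were called lower in that fit. The rho with length was then 0.026. The members lost included Sdhd, Uqcrc2, Ndufv1, Cox5a and Cox7c. Without control mice 2 and 4 at 7 d, left out after the data were seen, 59 members were called lower and the median was -1.18. Of the 17721 genes of that fit, 1978 were called lower. Among 47 tested members with at most 10% of sequence shared with, and exons overlapped by, other genes, 44 fell (median -1.74).

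**Figure D4:**
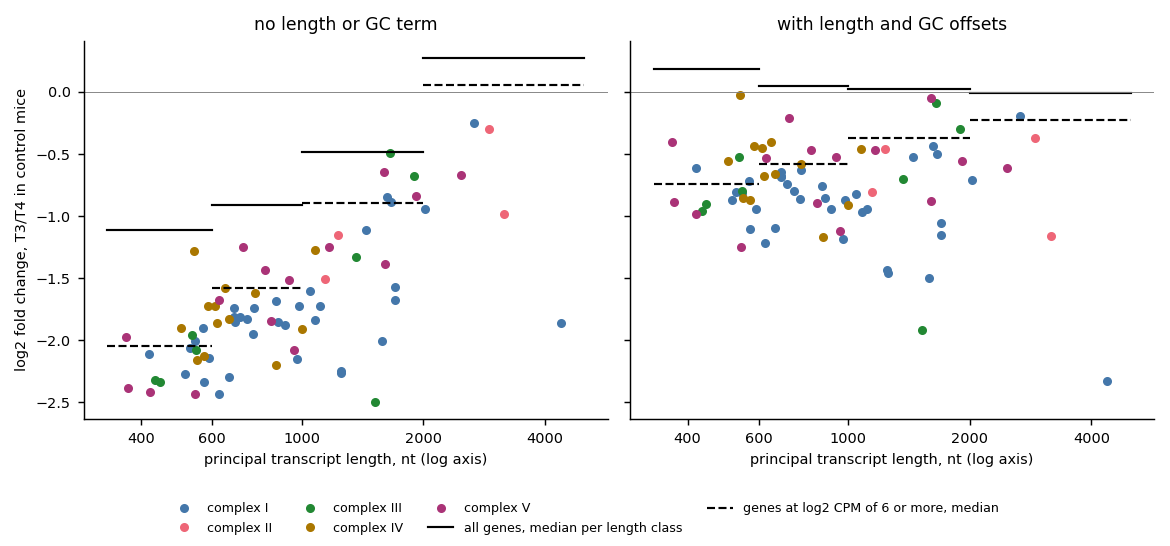
Log2 fold change with hormone in control mice (y axis) of each tested member except Cox6a2 and Atp5g1, by principal transcript length in nucleotides (log axis), without (left) and with (right) length and GC offsets; lines are medians per length class of all genes (solid) and of genes at a log2 CPM of 6 or more (dashed). Both kinds of line include the members. Without offsets members under 600 nucleotides have a median of -2.12 and longer ones lie nearer 0, and with offsets the members' median is -0.76.

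Marker genes of other cell types also moved with hormone in control mice. Of 10 brown adipocyte markers 5 fell (median -0.97), and their summed level was 32670 to 69660 CPM without hormone and 10650 to 17040 CPM with it. Of 10 myeloid markers 6 rose, from a summed 112 to 274 CPM to 551 to 1111 CPM. All 5 endothelial markers rose, from 326 to 703 CPM in sum to 799 to 1127 CPM. All 4 proliferation genes rose, from 1.39 to 5.71 CPM in sum to 54.2 to 128 CPM. No marker of these lists was at 0 in either group, and none of the 8 muscle or 7 lymphocyte markers was called. Of 5 pericyte and smooth muscle markers 1 rose and 1 fell. The part of these cell types in the members' change was not tested.

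The same comparison in Jag antibody mice asks whether hormone changes the subunits when the ligands are blocked. There 1 of 77 members was called, Cox7c, against 9.5% of all genes. The median change was -0.59, with 74 members below 0, and the median over all genes was -0.045. At an unadjusted p under 0.05 there were 21 members (27.3%), close to the 27.0% of all genes. Cox7c, a small complex IV subunit, stood at 2.35, 4.0, 3.0, 3.11 and 3.19 log2 CPM in Jag antibody mice 6 to 10 without hormone and at 2.17, 2.52, 2.69, 2.40 and 2.44 with it. The groups overlapped (log2 change -0.78 ± 0.25, adjusted p of 0.0384 in edgeR), and the call was lost with offsets (-0.25). It was also lost when any one was left out of Jag antibody mice 7, 9 and 10 without hormone or 6, 7, 9 and 10 with hormone, with changes of -0.81 to -0.50.

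The count differed between fits. Fitted on these 10 mice alone, with the filter and scaling redone, 20 members were called lower, with a median of -0.57, among 2782 of 14955 genes called. Cox7c was not one of the 20. DESeq2 over all mice called 2, Cox7c and Uqcrq. Of the marker lists, 2 of 10 brown adipocyte markers fell in these mice, and 3 of 10 myeloid, 1 of 5 endothelial and 4 of 4 proliferation genes rose, and their part was not tested. Uqcrq stood at 8.89, 10.71, 9.64, 10.32 and 10.07 without hormone and at 8.14, 8.40, 8.69, 8.48 and 9.26 with it. The groups overlapped through mouse 6 without and mouse 10 with hormone (log2 change -1.41 ± 0.51, adjusted p of 0.0737 in edgeR over all 40 mice). Without Jag antibody mouse 6 at 7 d without hormone, 3 members were called.

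By complex, the medians in Jag antibody mice were -0.63, -0.25, -0.69, -0.57 and -0.60 for complexes I to V, beside -1.85, -1.07, -2.02, -1.79 and -1.47 in control mice. The difference between these 2 changes was tested as the antibody by hormone interaction. No member was called, against 0.00586% of all genes, and the lowest adjusted p of a member was 0.374 in edgeR. At an unadjusted p under 0.05 there were 54 members (70.1%), against 12.3% of all genes, and DESeq2 called none. The median interaction was 1.17, with 75 of 77 members above 0. It was 0.55 with length and GC offsets and 0.53 without control mice 2 and 4 at 7 d. A hormone change that differs between the antibodies was thus not established for any single member.

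The antibody comparisons ask what blocking Jag1 and Jag2 changes at each time. At 15 h no member was called by edgeR or DESeq2, against 1.14% of all genes called. None had an unadjusted p under 0.05, against 12.0% of all genes. The median change was 0.12, from -0.037 to 0.26 when each mouse was left out in turn. Cox4i1, for example, stood at 11.13, 10.09, 10.52, 10.99 and 10.99 log2 CPM in control mice and at 10.86, 10.95, 10.67, 10.98 and 10.81 in Jag antibody mice. The Jag antibody mice lay within the range of the control mice.

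At 7 d 75 of 77 members had lower means in Jag antibody mice, and none was called by edgeR, against 2.5% of all genes. The median log2 change was -0.81. There were 49 members (63.6%) at an unadjusted p under 0.05, against 20.5% of all genes, and DESeq2 called 1, Cox6a1. Cox6a1, the widely expressed isoform of subunit 6a, stood at 10.01, 11.31, 10.42, 12.13 and 10.69 log2 CPM in control mice and at 8.71, 10.48, 9.57, 10.49 and 9.87 in Jag antibody mice. The groups overlapped (log2 change -1.15 ± 0.39, adjusted p of 0.0986 in edgeR). By complex the medians were -0.84 (I), -0.43 (II), -0.90 (III), -0.82 (IV) and -0.52 (V). The median over members was -0.31 with length and GC offsets, and -0.22 without control mice 2 and 4. With offsets 21 members (27.3%) had an unadjusted p under 0.05, against 19.4% of all genes. The same 5 control mice are the reference of this comparison and of the hormone comparison in control mice, so the 2 sets of values are not independent.

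With hormone at 7 d the members' median antibody difference was 0.32, with 75 of 77 above 0. No member was called by edgeR or DESeq2, against 1.14% of all genes, and 5 members (6.49%) had an unadjusted p under 0.05, against 11.9% of all genes. Fitted on these 10 mice alone, 1 member was called, Cox6b2. The antibody difference at 7 d minus that at 15 h gave no called member (1.31% of all genes were called), a median of -0.86 and 24 members (31.2%) at an unadjusted p under 0.05, against 17.0% of all genes. DESeq2 called none there. That median was -0.32 without control mice 2 and 4 at 7 d, -0.42 with offsets, and -1.03 to -0.55 when each mouse was left out in turn. With offsets 17 members (22.1%) had an unadjusted p under 0.05, against 18.4% of all genes.

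At 5 d the members' median was -0.018, with 42 below and 35 above 0. There 4 members fell and none rose, against 8.02% of all genes called and 5.93% called lower. They were Cox6a2, the c ring genes Atp5g1 and Atp5g3, and Atp5j, coupling factor 6 of the stalk. Cox6a2 (chr7:128205435-128206387, minus strand) had 282, 947, 12384, 7534 and 47953 reads in control mice 1 to 5 and 4, 16, 0, 0 and 4 reads in Jag antibody mice. The groups did not overlap (log2 change -11.95 ± 3.22, adjusted p of 0.022 in edgeR, a fitted value that depends on few reads in 1 group). Cox6a1, its widely expressed counterpart, stood at 8.82, 10.92, 9.66, 9.03 and 9.91 log2 CPM in control mice and at 10.42, 10.71, 9.13, 10.48 and 9.48 in Jag antibody mice. These groups overlapped, and the log2 change of 0.30 ± 0.38 had an adjusted p of 0.688 in edgeR.

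Atp5g1 had 31, 49, 206, 217 and 827 reads in control mice and 7, 9, 11, 4 and 18 in Jag antibody mice at 5 d (log2 change -5.29 ± 0.97, adjusted p of 0.00248 in edgeR). Every Jag antibody mouse was lower than every control mouse. Atp5g3, the abundant c ring gene in this tissue, stood at 7.49, 8.59, 8.52, 8.35 and 10.49 log2 CPM in control mice and at 7.95, 7.99, 7.37, 8.04 and 7.47 in Jag antibody mice. The groups overlapped through control mouse 1 (log2 change -1.28 ± 0.30, adjusted p of 0.00941 in edgeR). Atp5j stood at 6.63, 8.23, 8.09, 7.51 and 10.24 in control mice and at 7.51, 7.87, 6.24, 7.72 and 6.80 in Jag antibody mice. These groups overlapped as well (-1.34 ± 0.39, adjusted p of 0.0284 in edgeR), and 12.7% of the exons of Atp5j overlap those of Gabpa, so reads of the 2 genes may be mixed.

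Skeletal muscle markers moved the same way at 5 d. Of 8 markers 6 fell, and their summed level was 1018 to 175900 CPM in control mice and 0.878 to 43.9 CPM in Jag antibody mice. With the mean log2 CPM of these markers as a covariate none of the 4 members was called: Cox6a2 stood at -2.37, Atp5g1 at -2.60, Atp5g3 at -0.87 and Atp5j at -0.81. That fit called 89 of 17079 genes, against 1369 in the main fit, so the loss is not particular to these members. The covariate was 5.10 to 13.7 in control mice and -2.69 to 2.20 in Jag antibody mice. It therefore cannot be separated well from the antibody. Without control mouse 5 at 5 d, Atp5g1 alone stayed called (-3.27), and the others stood at -9.57 (Cox6a2), -0.55 (Atp5g3) and -0.43 (Atp5j). The fit without this mouse called 385 of 17311 genes. The calls of Cox6a2 and Atp5j were also lost without Jag antibody mouse 6, 8 or 10, and that of Cox6a2 without mouse 9. With length and GC offsets 7 members were called, 4 lower and 3 higher (Atp5h, Cox4i1 and Cox6b2). Of all 17079 genes, 1175 were called lower and 900 higher in that fit. The antibody difference at 7 d minus that at 5 d was called for Atp5g1 (5.57 ± 1.25, adjusted p of 0.0282 in edgeR), against 1.29% of all genes. That call was lost without control mouse 5 at 5 d (3.55) and without Jag antibody mouse 6 at 7 d (3.52), and also without Jag antibody mouse 6, 9 or 10 at 5 d or control mouse 2, 3 or 4 at 7 d (5.37 to 5.62). Over all members the median of that difference was -0.75, from -1.05 to -0.34 when each mouse was left out in turn and -0.14, with no member called, without control mice 2 and 4 at 7 d. Without control mice 2 and 5 at 5 d, which stood apart in their length slopes and were left out after the data were seen, the median antibody change at 5 d was 0.81, with Atp5g1 as the 1 called member. The 7 d minus 5 d difference was then called for 45 members, 43 of them lower, with a median of -1.55, in a fit that called 1566 of 17597 genes. This fit left out control mice only. Control mice 1, 3 and 4 at 5 d, which were kept, had length slopes of 0.25, -0.096 and 0.068. Jag antibody mice 6 to 10 at 5 d, all kept, had slopes of -0.22, -0.30, 0.25, -0.19 and 0.11.

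**Figure D5:**
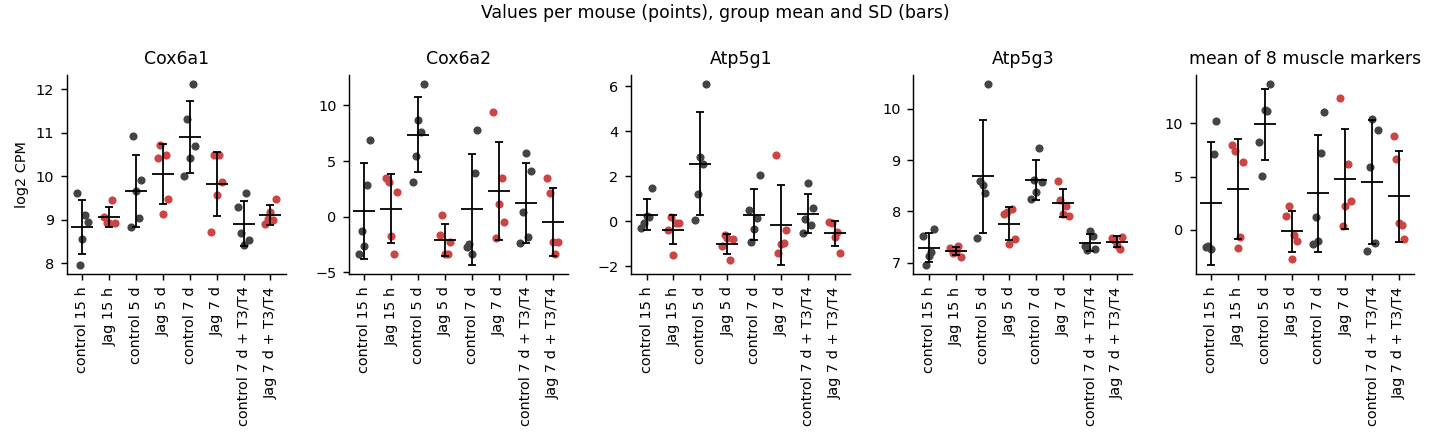
Log2 CPM per mouse (points; grey control, red Jag antibody) with group mean and SD (bars, n = 5) for Cox6a1, Cox6a2, Atp5g1, Atp5g3 and the mean of 8 skeletal muscle markers over the 8 groups; y axes differ. Cox6a2 and Atp5g1 are high in control mice at 5 d, where the muscle markers are also high, and Cox6a1 is highest in control mice at 7 d.

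The 4 tissue isoforms set aside by the rule did not all follow the members. Cox4i2, an alternative to Cox4i1, fell with the Jag antibodies at every time: -1.31 (15 h), -1.17 (5 d), -2.40 (7 d) and -1.49 (7 d with hormone). Ndufa4l2, an alternative to Ndufa4, fell by 1.43 at 5 d, by 1.99 at 7 d and by 1.59 with hormone, and stood at -1.05 at 15 h (adjusted p of 0.0616 in edgeR). Of 5 pericyte and smooth muscle markers, 2 fell with the Jag antibodies at 5 d, 1 at 7 d and 1 with hormone. At 15 h none was called. Their sum at 7 d was 536 to 1031 CPM in control mice and 169 to 382.5 CPM in Jag antibody mice. With hormone it was 496 to 778 and 187 to 308 CPM, while at 15 h and 5 d the groups overlapped. The part of these cells in the isoform changes was not tested. Cox8b and Cox7a1, which brown fat shares with striated muscle, were called by edgeR in none of the antibody comparisons without offsets. With offsets both were called higher at 5 d, at 0.74 and 0.61 (without offsets 0.32 and 0.18). With hormone in control mice both fell, with changes of -2.87 and -1.96. Cox4i2 fell there as well (-0.89, adjusted p of 0.0212 in edgeR), a call lost with offsets (0.17).

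Other genes of the respiratory system were read from lists. Over all genes, 22.9% were called lower with hormone in control mice, and 3133 of 17079 with offsets. With hormone in control mice, 10 of 13 mitochondrially encoded subunits fell (median -1.32, led by mt-Nd3 at -2.18 and mt-Co2 at -2.12), and with offsets 3 fell and 1 rose. Of 42 tested assembly factors 34 fell (median -0.96), among them Ndufaf8 (-2.68), Cox16 (-2.38) and Uqcc3 (-2.17), and 27 with offsets. A list of 12 genes held those for the mobile carriers, cytochrome c and coenzyme Q, and also Cyc1. Cyc1, cytochrome c1, is a nuclear-encoded complex III subunit that the symbol rule for members did not match. Of the 12, 11 fell (median -0.98, with Coq7 at -1.69, Cycs at -1.31 and Cyc1 at -1.11), and 8 with offsets. Of 13 genes of the TCA cycle, which feeds the chain, 8 fell (median -0.58, with Idh3g at -1.05), and 3 with offsets.

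Cytosolic ribosomal proteins serve as a comparison list of short, abundant transcripts, with a median length of 853 nucleotides against 838 for the members tested. Mitochondrial ribosomal proteins were read as well, and their transcripts are longer (median 1316 nucleotides). Of 77 tested mitochondrial ribosomal proteins 76 fell with hormone in control mice (median -1.40), and 70 with offsets (median -0.77). Of 70 tested cytosolic ribosomal proteins 45 fell (median -1.24). With offsets 15 of these fell and 4 rose (median -0.36).

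Of 17 regulators of respiratory genes, 4 fell and 2 rose with hormone in control mice, and with offsets 7 fell and none rose. Of all 17079 genes, 3915 were called lower and 3463 higher, and 3133 and 2869 with offsets. Without offsets the share of regulators that fell was near that of all genes (22.9%). Polg, the mitochondrial DNA polymerase, was 1 of the 2 that rose (0.38), and was called lower with offsets (-0.38); it was singled out after its values were seen. Esrra, an estrogen-related receptor, fell by 1.19, and Tfb2m, a mitochondrial transcription factor, by 0.83. Pprc1, a coactivator related to Ppargc1a, rose by 0.94, a call lost with offsets (0.39). Ppargc1a itself rose at 5 d with the Jag antibodies (1.11 ± 0.36, adjusted p of 0.0489 in edgeR). It was the 1 regulator of the 17 called there, against 8.02% of all genes.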

How the data were processed

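The authors deposited raw counts per Ensembl gene for 40 mice and a companion FPKM table of the same genes. Each deposited FPKM equals the count divided by a library factor and a gene length, which is proportional to genomic span for 84.82% of 14290 genes. FPKM was therefore used only within a gene. The submitters' processing notes name GSNAP and limma; the genome build, the counting program and any use of strand are not given in the sources used here. Symbols were matched for 52403 of 52636 genes, and lengths came from GENCODE M21 (GRCm38). Promoters came from a RefSeq table.

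Counts were fitted with edgeR 4.0.16 (R 4.3.3; filterByExpr, TMM, quasi-likelihood) in 1 model of 8 group means. Adjusted p-values run over 17079 genes, for 6 comparisons of 2 groups and 3 interactions. Offsets were natural splines with 4 degrees of freedom on length and GC per library. DESeq2 1.42.0, limma 3.58.1 on log2(FPKM + 1) of the deposited values, RLE scaling, no filter, a muscle covariate, only the groups compared, a block on mouse number and the omission of single mice were alternatives. In counts simulated for hormone in control mice over 16820 genes, 43% of 2-fold and 88% of 4-fold changes were recovered, with 4 false calls.

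Named genes were, per comparison of 2 groups and complex, up to 2 called members per direction of largest change with a mean log2 CPM of at least 1. To these were added all complex II and complex I core subunits, catalytic and core members, paralog pairs and isoforms set aside. The members, lists and motifs were chosen with earlier results of these data known. No 2 libraries of a group agreed within sampling noise (lowest chi-square per degree of freedom 17.9 over 80 pairs). The values of 1 member are not reported here singly, and it enters only the counts and medians.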

Additional observations from a re-analysis of the deposited data

Results flagged for a closer look

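In 7 of 176 groups of 5 mice examined (single members or shares of a complex), 1 mouse stood far from the other 4 (its gap to the nearest mouse was over 0.71 of the group's range). Chance alone would flag about 1 in 20 groups, here 8.8. Jag antibody mouse 6 at 7 d gave 3 of them: complex V held 1.218% of its counts, with the nearest mouse at 1.822%, Uqcrc1 stood at 9.49 log2 CPM (nearest 10.51) and Atp5g1 at 2.93 (nearest -0.37). This mouse also had the highest muscle marker sum of its group, 51060 CPM. Jag antibody mouse 9 at 15 h stood high for Cox5b, at 5.33 log2 CPM, and for Cox6a1, at 9.44. Cox5b was at 5.68 in Jag antibody mouse 10 with hormone, and Atp5b at 13.19 in control mouse 2 at 5 d. The antibody difference of Atp5g1 at 7 d differed from that at 5 d by 5.57 on the log2 scale in edgeR's interaction test.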

How the results depend on the processing

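Under the alternatives run, no change called in the main fit for a named member reversed direction. Changes that were not called are not covered by this. At 5 d, for example, the median over members was -0.018, and 0.22 with length and GC offsets. For hormone in control mice the count of 72 called members was 71 or 72 with RLE scaling, no filter, the muscle covariate, only the groups compared, DESeq2, limma and each mouse left out in turn (71 to 72), and 59 with length and GC offsets or without control mice 2 and 4 at 7 d. At 15 h, for the interaction with hormone and for 7 d minus 15 h it was 0 throughout. Over all genes the fits called 0 to 753, 0 to 36 and 7 to 696 there. At 7 d the count of members was 0, but 1 with DESeq2, which called 835 genes in all. With hormone at 7 d it was 0, but 1 with only the groups compared, a fit that called 694 genes. For hormone in Jag antibody mice the count of 1 became 20 with only the groups compared, 2 with DESeq2 or the muscle covariate, 0 without a filter or with limma, and 0 to 3 when each mouse was left out. Over all genes those fits called 2782, 2225, 1643, 990, 1219 and 1048 to 1912 in that order, and the main fit 1622. At 5 d the count of 4 became 0 with the muscle covariate, 7 with offsets, 2 with only the groups compared, 1 without control mice 2 and 5, and 1 to 4 when each mouse was left out. Over all genes those fits called 89, 2075, 431, 588 and 385 to 2726 in that order, and the main fit 1369. For 7 d minus 5 d the count of 1 became 4 with offsets, 2 with DESeq2, and 0 without a filter, with the muscle covariate, limma or only the groups compared, or without control mice 2 and 4 at 7 d. Over all genes those fits called 392, 964, 63, 0, 15, 2 and 0 in that order, and the main fit 220. Where so few genes were called, a count of 0 is no result about the members. Without control mice 2 and 5 at 5 d the count of members became 45, 43 of them lower (median -1.55), among 1566 genes called. It ran from 0 to 3 when each mouse was left out, in fits that called 5 to 968 genes. The cause of these shifts was not tested. Leaving out pairs of mice was chosen after seeing the data, and only control mice were left out in this way.

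Mouse numbers do not pair the animals: deviations of same-numbered mice correlated at 0.098 to 0.19 on average over 6 pairs of groups, with single pairs from -0.36 to 0.73, and in no pair of groups were all 5 over 0.1. With the replicate block 72 members stayed called for hormone in control mice, and for 7 d minus 5 d the count became 2 (6 with the block and offsets). Over all genes these fits called 7424, 371 and 535 in that order. The depth of 12217623 counts or more per library leaves few reads for Atp5l, Cox7c and Atp5g1, while the largest errors were those of Cox6a2 (SE 3.22 at 5 d), and 5 mice a group recovered fewer than all simulated 2-fold changes (43%).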
